A study of Mus musculus with 3 samples.

Results

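RNA levels of 8 genes of the Hedgehog pathway were measured in normal mouse muscle: the receptor Ptch1, the signal transducer Smo, the co-receptor Gas1, the ligand-binding antagonist Hhip, the inhibitor Sufu and the transcription factors Gli1, Gli2 and Gli3. They were taken as every probe set whose annotation names exactly 1 of these genes and no other, which gave 15 of the 22690 probe sets on the array and 8 of 12394 named genes. A probe set is a group of short probes against 1 transcript, mostly near its 3' end. No probe set named one of the 8 together with another gene.

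The 3 samples, called muscle 1, muscle 2 and muscle 3, form 1 group of littermate controls aged 3 to 6 weeks, with 1 array each. The study concerned tumours of satellite cells, the Pax7-expressing stem cells of muscle, transformed in culture or in the animal. The labels do not say which muscle was taken, whether the controls also received the 4-hydroxytamoxifen that was injected to start tumours, or whether the samples came from separate animals. The tumours were not analysed here, so there is 1 condition and no contrast between conditions. Every SD below is a spread between samples that may be technical in part or in whole.

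In the absence of ligand, Ptch1 keeps Smo inactive, and Sufu and the cleaved form of Gli3 hold target genes down. A Hedgehog ligand bound to Ptch1, with Gas1, Cdon or Boc as co-receptor, frees Smo, which acts at the primary cilium to turn Gli2 and Gli3 into activators. Gli1, Ptch1 and Hhip are themselves targets, and Ptch1 and Hhip restrain the signal in turn. In the embryo the pathway helps to start Myf5 in the somite, and in mice loss of a Ptch1 copy predisposes to rhabdomyosarcoma, a tumour with features of skeletal muscle.

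The sequences before the start sites of Ptch1, Hhip and Gli3 are shown because these genes, a receptor that is a target, an antagonist that is a target and a factor that represses targets, share a start rich in CpG, while every probe set of Hhip and Gli3 was below background and Ptch1 had 1 above it and 1 below. They are the 250 bases upstream of a start site in RefSeq's GRCm38.p6 table, on the strand of the gene, with CG dinucleotides in capitals. The windows are chr13:63565736-63565985 on the minus strand for Ptch1, chr8:80058009-80058258 on the minus strand for Hhip and chr13:15463473-15463722 on the plus strand for Gli3.
Ptch1: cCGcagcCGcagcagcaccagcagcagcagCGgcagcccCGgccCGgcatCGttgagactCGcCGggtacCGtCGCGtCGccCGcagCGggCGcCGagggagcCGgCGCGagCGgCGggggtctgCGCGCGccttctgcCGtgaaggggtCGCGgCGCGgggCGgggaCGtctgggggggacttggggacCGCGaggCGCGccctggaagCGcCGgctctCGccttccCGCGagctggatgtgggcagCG
Hhip: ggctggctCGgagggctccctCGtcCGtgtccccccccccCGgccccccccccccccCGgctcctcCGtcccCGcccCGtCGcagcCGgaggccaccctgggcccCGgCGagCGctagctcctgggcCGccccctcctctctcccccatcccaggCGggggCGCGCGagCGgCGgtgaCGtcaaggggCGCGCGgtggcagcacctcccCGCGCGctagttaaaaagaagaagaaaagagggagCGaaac
Gli3: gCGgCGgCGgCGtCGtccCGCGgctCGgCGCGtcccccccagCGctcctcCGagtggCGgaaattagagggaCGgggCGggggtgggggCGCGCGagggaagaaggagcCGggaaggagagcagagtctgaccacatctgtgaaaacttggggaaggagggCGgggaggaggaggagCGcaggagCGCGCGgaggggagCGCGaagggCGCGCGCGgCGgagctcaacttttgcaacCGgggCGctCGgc
They held 41 CG dinucleotides in Ptch1, 28 in Hhip and 34 in Gli3. Over the 32851 windows of the table the median was 6. Windows were matched for 7 of the 8 genes, all but Gli1, and each of the 7 was above this median, with Gas1 at 10, Sufu at 8, Smo at 15 and Gli2 at 22. Fewer CG dinucleotides than in Ptch1 were found in 98.9% of windows and fewer than in Sufu in 57.0%. The Gli consensus GACCACCCA, sought on both strands of the 300-base windows that also hold 50 bases past the start, was in 0 of these 7 and in 0.253% of all windows. That says only that these letters are not in these windows.

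A level was compared with the background of its own muscle: 43 genes typical of organs such as liver, retina or pancreas supplied 61 probe sets, and their 95th percentile was taken. On the log2 scale of all levels here, muscles 1, 2 and 3 had a background of 5.99, 5.88 and 6.18. Of the 15 probe sets, 6 were above it in all 3 muscles and 9 in none, and no probe set was divided between muscles. The share of 40% stands beside 49.3% of all single-gene probe sets. Judged by the probe set with the highest mean, 5 of the 8 genes were above background in all 3 muscles: Ptch1, Smo, Gas1, Sufu and Gli2. That is 62.5%, beside 56.5% of all genes, so the number of these genes detected was near that of genes at large. Gli1, Gli3 and Hhip were below background in every muscle. Probe sets bind with different strength, so the levels of different genes are not ranked here, and a level below background does not show that a gene was silent.

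**Figure D1:**
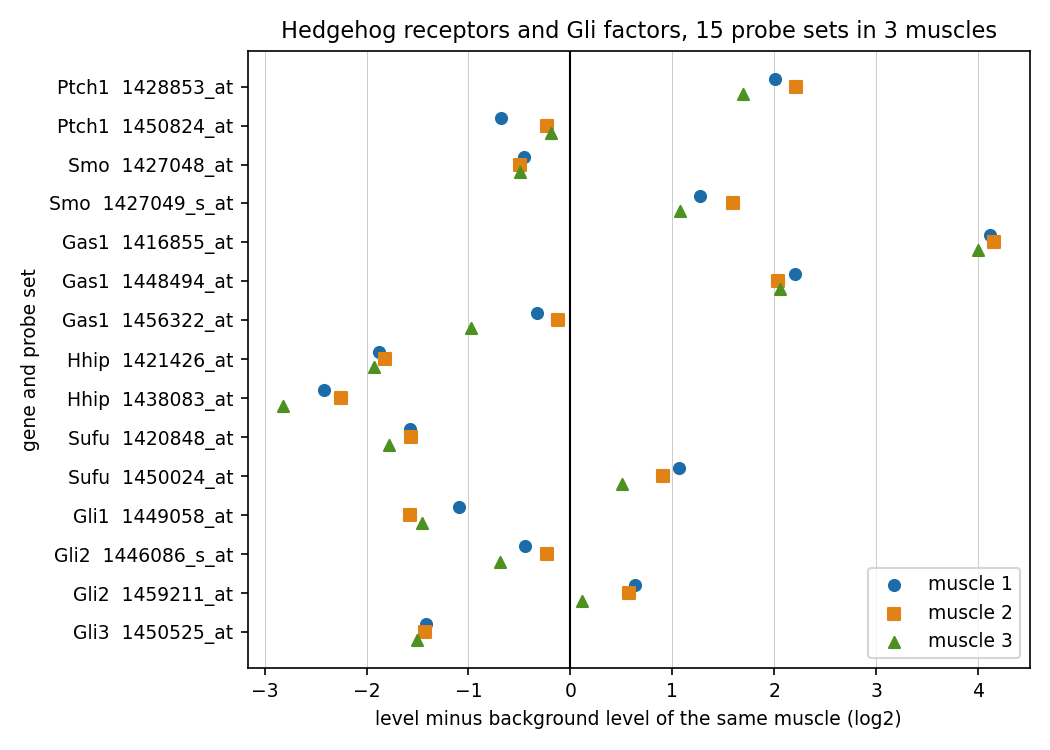
Level minus the background level of the same muscle (log2, horizontal axis) for each of the 15 probe sets (rows), with a circle for muscle 1, a square for muscle 2 and a triangle for muscle 3; the vertical line at 0 is background. The points of 6 probe sets lie to the right of the line and those of 9 to the left, and no row has points on both sides.

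Of the receptor genes, Ptch1 binds the ligand and is also switched on by the pathway. Its probe set 1428853_at read 8.0, 8.09 and 7.87 in muscles 1, 2 and 3, a mean of 7.99 ± 0.11 (SD, n = 3). All 3 muscles lay close together and 1.69 to 2.21 above background. The other probe set, 1450824_at, read 5.31, 5.66 and 5.99 in muscles 1, 2 and 3, which is -0.68, -0.23 and -0.19 relative to background. It was lowest in muscle 1 and highest in muscle 3, whereas 1428853_at was lowest in muscle 3. The 2 probe sets of the receptor thus gave opposite calls and did not depart the same way. The span of 1450824_at between muscles, 0.68, was the widest of the 15.

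Smo is the membrane protein that passes the signal on once Ptch1 has bound ligand. Its probe set 1427049_s_at read 7.26, 7.47 and 7.25 in muscles 1, 2 and 3, a mean of 7.33 ± 0.12 (SD, n = 3). It was highest in muscle 2, and all 3 values were above background by at least 1.07. The probe set 1427048_at read 5.54, 5.39 and 5.69, which is -0.45, -0.49 and -0.49 relative to background. Both were designed against the same transcript record, and only the one whose name marks probes shared between transcripts (_s_at) placed Smo above background. Without probe sets of that kind Smo was below background in all 3 muscles.

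Gas1 is a surface protein that presents ligand to Ptch1, and its gene is held down by Hedgehog signalling in several embryonic tissues. It had 3 probe sets. The first, 1416855_at, read 10.11, 10.04 and 10.18 in muscles 1, 2 and 3, a mean of 10.11 ± 0.07 (SD, n = 3), and stood 4.00 to 4.16 above background. The second, 1448494_at, read 8.20, 7.92 and 8.24, a mean of 8.12 ± 0.17 (SD, n = 3). Both were lowest in muscle 2. The third, 1456322_at, read 5.66, 5.76 and 5.21, below background in every muscle and lowest in muscle 3. Gas1 was the only gene of the 8 with more than 1 probe set above background.

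Hhip, a membrane-anchored protein that traps ligand, had both probe sets well below background. The probe set 1421426_at read 4.11, 4.06 and 4.26 in muscles 1, 2 and 3, and 1438083_at read 3.57, 3.63 and 3.36. Relative to background the readings ran from -1.82 to -2.82, distances larger than the spread between muscles for either probe set. Of the targets that restrain the signal, Hhip was thus below background with both probe sets and Ptch1 with 1 of its 2.

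Sufu binds Gli proteins in the cytoplasm and keeps them from activating targets. Its probe set 1450024_at read 7.05, 6.79 and 6.69 in muscles 1, 2 and 3, a mean of 6.84 ± 0.19 (SD, n = 3). It was above background by 0.51 to 1.06, with the smallest margin in muscle 3. The probe set 1420848_at read 4.41, 4.31 and 4.40, which is -1.57 to -1.78 relative to background, and had the smallest range of the 15, 0.10. Both carry the same transcript record in the annotation. Averaged over its probe sets, Sufu was below background in all 3 muscles.

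Among the transcription factors, Gli1 is a pure activator whose RNA is widely read as a marker of active signalling. Its only probe set, 1449058_at, read 4.90, 4.31 and 4.73 in muscles 1, 2 and 3, a mean of 4.65 ± 0.31 (SD, n = 3). Relative to background it stood at -1.09, -1.57 and -1.45, lowest in muscle 2, and the distance to background exceeded its range of 0.59 in each muscle. Gli3, the main repressor, also had 1 probe set, 1450525_at, which read 4.57, 4.46 and 4.67. These values lay at -1.42 to -1.51 relative to background and spanned 0.22. Neither gene has a second probe set against which its low reading could be set.

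Gli2 is the main activator downstream of Smo, and its call rested on a small margin. Its probe set 1459211_at read 6.63, 6.46 and 6.29 in muscles 1, 2 and 3, a mean of 6.46 ± 0.17 (SD, n = 3). It exceeded background by 0.64 in muscle 1, 0.58 in muscle 2 and only 0.11 in muscle 3. With background at the 99th percentile it was below it in every muscle. The probe set 1446086_s_at read 5.54, 5.65 and 5.49, which is -0.45, -0.23 and -0.69 relative to background. Both carry the same transcript record.

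Probe sets of the same gene disagreed for most of these genes. Of the 6 genes with more than 1 probe set, 5 had at least 1 above background in all 3 muscles and at least 1 below it in all 3, the exception being Hhip. Among all 4958 genes with 2 or more probe sets, 39.0% were divided in this way. The highest muscle was the same for all probe sets of a gene in Sufu alone, and the lowest in Gli2 alone. The call by the highest probe set also grows easier with the number of probe sets: it was met by 45.9% of genes with 1, 67.0% with 2 and 78.1% with 3. Gli1 and Gli3 have 1 each, Gas1 has 3 and the other 5 have 2. With a mean over all probe sets in place of the highest, Ptch1, Smo and Gas1 remained above background in all 3 muscles, Gli2 was above it in some, and Sufu, Gli1, Gli3 and Hhip in none.

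The range of a probe set, its highest minus its lowest muscle, ran from 0.10 to 0.68 over the 15, and none reached 1, a 2-fold difference. Of probe sets above background in at least 1 muscle, 0 of the 6 of these genes and 0.629% of all had a range of 1 or more. The 71 probe sets behind that share became 3 without muscle 3, 50 without muscle 2 and 55 without muscle 1. Of the 6 above background, the range was smallest for Gas1 1416855_at, 0.15, and largest for Sufu 1450024_at, 0.36. Their median SD was 0.15, beside 0.080 over all probe sets above background in all 3 muscles and 0.15 over those above it in none. Against the SD that limma's fit gave for its level, the excess was smallest for Smo 1427049_s_at, 0.124 against 0.116. It was largest for Gas1 1448494_at, 0.17 against 0.094. How many of all probe sets had an SD above the fit was not counted, so an excess is not read as a trait of these genes. In the test of that excess, 0 of the 6 varied in excess at a limma adjusted p under 0.05, and 0 had an unadjusted p under 0.05. Over all 11295 probe sets tested, 0.142% were called, 16 in number, which became 0 without muscle 1 and 1 without muscle 2 or muscle 3. The smallest unadjusted p of the 6 was 0.101, for Gas1 1448494_at, with an adjusted p of 0.987 by limma. With 3 samples and 1 group, this does not show that the muscles were alike.

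**Figure D2:**
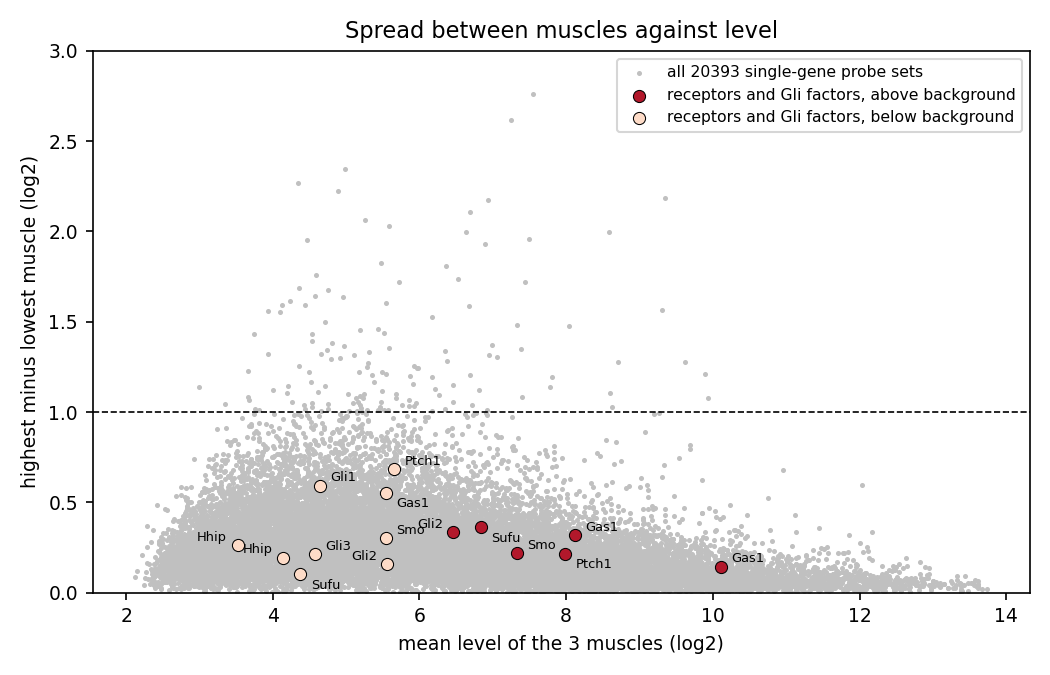
Highest minus lowest muscle (log2, vertical axis) against the mean level of the 3 muscles (log2, horizontal axis) for all 20393 single-gene probe sets (grey) and for the 15 probe sets of the receptors and Gli factors (dark red above background, pale below). The 15 lie between 0.10 and 0.68, all under the dashed line at 1.

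The ligands were at or below background. Shh, the ligand of the embryonic midline and limb bud, read 3.32, 3.53 and 3.50 in muscles 1, 2 and 3. Ihh, the ligand of growing cartilage, read 5.04, 4.38 and 4.76. Dhh, which Schwann cells make to build the nerve sheath, had 1 probe set at background: 1434959_at read 6.22, 5.86 and 6.10, above background in muscle 1 only, by 0.23, and 1422127_at was below in all 3. No ligand was therefore detected in every muscle, beside 56.5% of all genes. That count depended on the cutoff: with background at the 90th percentile, 1 ligand was above it in all 3 muscles. Schwann cell genes were read in the same samples: the myelin gene Mbp was at 10.04 ± 0.04 (SD, n = 3), Pmp22 at 11.31 ± 0.03 (SD, n = 3) and Sox10 at 6.80 ± 0.15 (SD, n = 3), while S100b was below background at 5.61 ± 0.22 (SD, n = 3). Of 8 measured Schwann cell genes, 4 were above background in all 3 muscles, 1 in some and 3 in none. That is 50%, beside 56.5% of all genes. With probe sets averaged, 2 were above it in all 3 muscles, Mbp and Pmp22, and Sox10 was above it in none. Over the 8 genes, muscles 1, 2 and 3 had a mean level of 7.12, 7.20 and 7.21. Their part in the Dhh reading was not tested. In whole tissue, fewer cells of a type and less RNA per cell cannot be told apart.

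Of the genes for ligand release and spread, 5 of 9 had a probe set and 3 of these were above background in all 3 muscles. That is 60%, near the 56.5% of all genes. The glypicans Gpc3 and Gpc4, which bind ligand at the cell surface, were at 7.49 ± 0.14 (SD, n = 3) and 8.69 ± 0.11 (SD, n = 3). The secreted protein Scube1 read 6.73, 6.59 and 6.55 in muscles 1, 2 and 3. Scube2, which helps lipid-modified ligand off the cell, read 5.19, 5.78 and 5.40, and Hhat, which adds the palmitate, read 4.85, 4.76 and 4.78, both below background throughout.

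Of the other co-receptors, none was above background. Cdon, a co-receptor of myoblasts and of the embryonic midline, read 4.87, 5.23 and 5.27 in muscles 1, 2 and 3. The highest probe set of Boc, its close relative, read 5.20, 5.43 and 5.67, and its other 2 probe sets were below background as well. Lrp2 was at 3.01 ± 0.05 (SD, n = 3). So 0 of these 3 genes were above background in any muscle, while 56.5% of all genes were above it in all 3. Levels of different probe sets are not comparable, and this says nothing of their RNA relative to that of Gas1, which itself had a probe set below background.

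**Figure D3:**
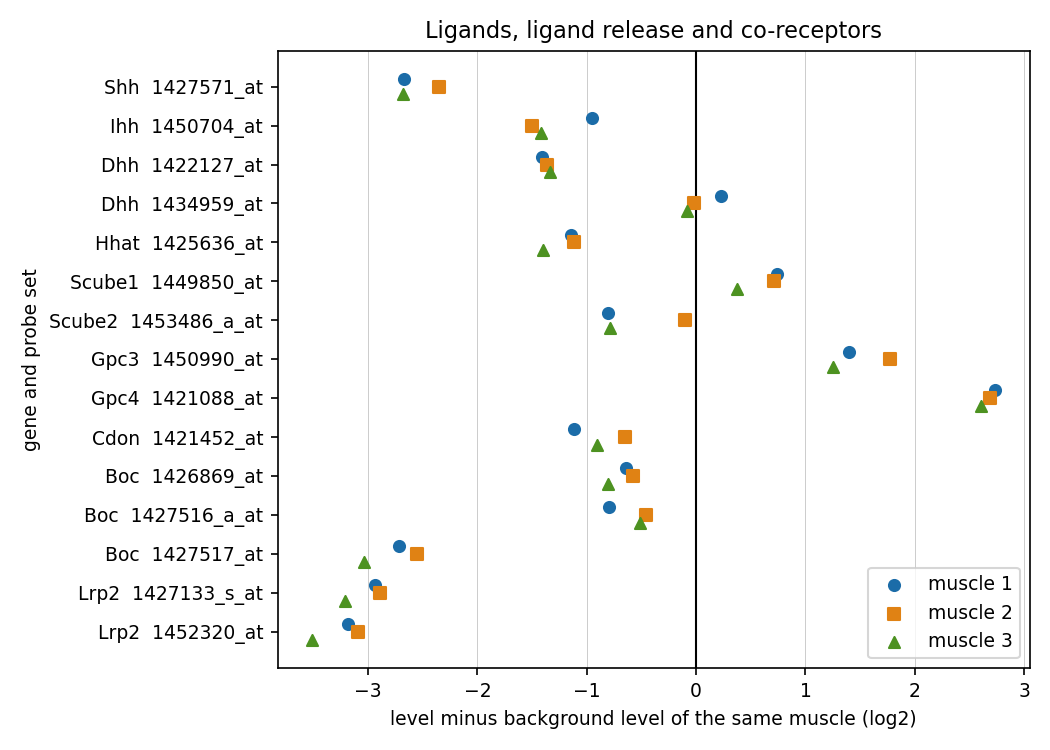
Level minus the background level of the same muscle (log2, horizontal axis) for the 15 probe sets of ligands, ligand release genes and co-receptors (rows), with symbols for the 3 muscles; the line at 0 is background. Gpc4, Gpc3 and Scube1 lie to the right of the line in all 3 muscles, Dhh 1434959_at is at the line, and Cdon, Boc and Lrp2 are to the left.

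RNA of most genes that act between Smo and the Gli factors was above background. They encode kinases, ubiquitin ligase parts and trafficking proteins with many duties outside this pathway. Of the 27 with a probe set, 22 were above background in all 3 muscles, 1 in some and 4 in none, 81.5% beside 56.5% of all genes. With probe sets averaged, 19 of the 27 passed background in every muscle, and Prkacb, Tulp3 and Rab23 no longer did. A call by the highest probe set grows easier with more probe sets per gene, and the 56.5% was not matched for their number. The 81.5% is therefore not read as an excess of detection. The protein kinase A subunits Prkaca and Prkacb, which mark Gli proteins for processing, were at 9.50 ± 0.10 (SD, n = 3) and 7.73 ± 0.20 (SD, n = 3). The value of Prkacb is that of its highest probe set. Its other probe set, 1420610_at, read 3.63, 3.77 and 4.16 in muscles 1, 2 and 3, below background in each. The beta-arrestin gene Arrb2 was at 7.08 ± 0.11 (SD, n = 3) and Arrb1 was below background at 5.68 ± 0.18 (SD, n = 3). Csnk1a1, Gsk3a, Spop, Cul3 and Btrc, parts of the machinery that phosphorylates or degrades Gli proteins, were all in the detected group. Csnk1a1 and Btrc also had a probe set below background in every muscle, 1451497_at and 1417325_at, but stayed above background with probe sets averaged.

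Smo acts at the primary cilium, which transport proteins and the proteins of its base build and maintain. Of 16 measured cilium genes, 6 were above background in all 3 muscles, 3 in some and 7 in none, a share of 37.5% beside 56.5% of all genes. The transport proteins Ift172 and Ift140 were at 7.63 ± 0.14 (SD, n = 3) and 6.66 ± 0.08 (SD, n = 3). Ift88 read 5.79, 5.54 and 5.94 in muscles 1, 2 and 3, below background in each. Ift122 was above background in muscles 1 and 2 and below it in muscle 3, where background was highest.

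Of 38 measured genes reported elsewhere as targets of the pathway in 1 tissue or another, 10 were above background in all 3 muscles, 6 in some and 22 in none. The share of 26.3% stands beside 56.5% of all genes. The list holds many patterning factors of the embryo, such as Foxa2, Nkx2-2, Nkx6-1, Olig2 and Pax6, all below background. The cyclins Ccnd1 and Ccnd2, which drive entry into the cell cycle and answer to many signals, were at 8.07 ± 0.01 (SD, n = 3) and 9.12 ± 0.08 (SD, n = 3). Ccne1 and Mycn were above background in 2 of 3 muscles each, with means of 6.03 and 6.09. Foxf1, Foxf2 and Foxl1, targets in mesenchyme of the gut, were below background in every muscle, whereas Bmp4 and Myf5 were above it. Together the 6 lists of other pathway genes had 92 measured, and 41 of them, 44.6%, passed background in all 3 muscles. None of their 78 probe sets tested varied in excess between muscles by limma, with 2 at an unadjusted p under 0.05. Apart from the genes taken first in each list, the names given for the last 3 lists were chosen after their values were seen.

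**Figure D4:**
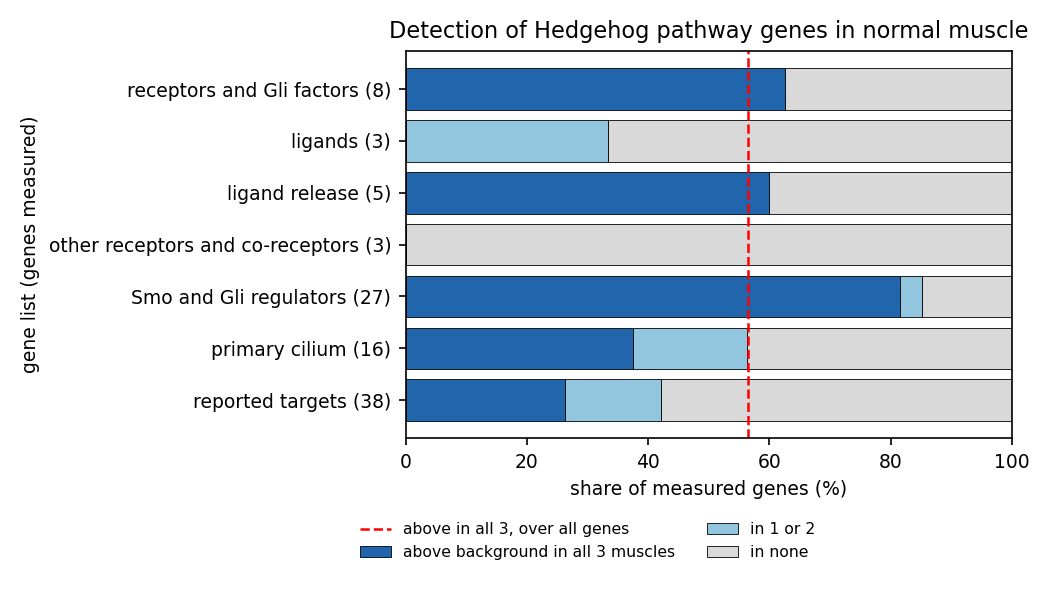
Share of measured genes (%, horizontal axis) above background in all 3 muscles (dark blue), in 1 or 2 (light blue) and in none (grey), for the receptors and Gli factors and for 6 lists of other pathway genes (number measured in brackets); the dashed line is the share above in all 3 over all genes, 56.5%. The receptors and Gli factors reach 62.5%, the Smo and Gli regulators 81.5% and the reported targets 26.3%.

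Marker genes of several cell types were read in the same samples. As in the other lists, a level or call is that of a gene's probe set with the highest mean unless another is named. Other probe sets of some genes were below background in every muscle. Examples are Pdgfra 1421916_at, Cdh5 1422047_at and Myh1 1452465_at, with means of 3.64, 4.56 and 3.74. Those of other genes, such as Fmod, were all above it. The share above background in all 3 muscles was 100% for skeletal muscle and 92.3% for fibro-adipogenic and matrix genes. It was 80% for endothelial and 70% for satellite cell genes. For hair follicle and keratinocyte genes it was 55.6%, and for tendon and cartilage genes 44.4%, neither above the 56.5% of all genes. All 10 skeletal muscle genes were above background, among them the actin gene Acta1 at 13.62 ± 0.03 (SD, n = 3). The myosin genes Myh1, Myh2 and Myh4 were at 13.37 ± 0.03, 12.99 ± 0.02 and 13.26 ± 0.03 (SD, n = 3). Of 13 genes of fibro-adipogenic and matrix cells, in which Gli1 and Ptch1 are known to be active, 12 were above background in all 3 muscles, with the receptor gene Pdgfra at 9.31 ± 0.07 (SD, n = 3). Cd34, Dcn and Lum, a surface marker and proteoglycans of the matrix, were at 9.72 ± 0.07, 11.93 ± 0.01 and 10.44 ± 0.16 (SD, n = 3). Of 10 endothelial genes, 8 were above background in all 3 muscles, with Pecam1, Cdh5, Kdr and Tek at 6.49 ± 0.10, 8.49 ± 0.17, 7.31 ± 0.31 and 7.15 ± 0.13 (SD, n = 3). Of 10 satellite cell genes, 7 were, among them Cdh15, Myf5 and Myod1 at 7.31 ± 0.11, 6.56 ± 0.13 and 7.72 ± 0.09 (SD, n = 3), while Pax7 itself was below background at 5.31 ± 0.19 (SD, n = 3). Of 9 tendon and cartilage genes, 4 were, among them Tnmd at 7.21 ± 0.04 and Fmod at 10.58 ± 0.05 (SD, n = 3), while the transcription factor genes Scx and Sox9 were below background at 5.22 ± 0.10 and 5.47 ± 0.11 (SD, n = 3). Skin carries active Hedgehog signalling in its hair follicles, and 5 of 9 genes of hair follicle and keratinocyte were above background. Krt5 read 7.02, 7.22 and 6.91 in muscles 1, 2 and 3, and Krt10 read 9.25, 9.31 and 9.17. Krt1, of the upper epidermis, was at 6.36 ± 0.16 (SD, n = 3). Krt14 was below background, at 5.75 ± 0.14 (SD, n = 3). The loricrin gene Lor, of the outer epidermis and named after its values were seen, had a probe set, 1420183_at, that read 8.65, 8.61 and 8.75. Its probe set 1448745_s_at was also above background, while 1420184_at, at 5.41, 5.39 and 5.19, was below it in every muscle. Of the rest of this list, Krt15 was above background in all 3 muscles, and Krt17, Trp63 and Ivl were above it in none. Over the 9 genes, muscles 1, 2 and 3 had a mean of 6.45, 6.55 and 6.52, so no muscle stood far from the others. Their part in the Ptch1, Gas1 and Smo readings was not tested.

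Muscles 1, 2 and 3 shared a median level of 6.12, taken across every probe set. Quantile normalization, a step of RMA, brings the medians of arrays together by construction. Equal medians therefore cannot show whether the arrays were alike in brightness. The 3' minus 5' difference of control probe sets was 0.38 ± 0.05 (SD, n = 3) for Gapdh and 0.71 ± 0.09 (SD, n = 3) for Actb. The number of arrays limits the precision of every value above.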

How the data were processed

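For 3 samples of normal muscle the authors deposited array levels as log2 values, made with RMA per the submitters' processing notes; RMA subtracts background, quantile normalizes the arrays and summarises probes. The RMA version, and which arrays it normalized together, were not given in the sources used here. Per the labels' protocols, 500 ng of Trizol-extracted RNA was amplified and labelled. Quantile normalization hides a change shared by most genes.

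GEO's platform annotation gave 1 gene for 20393 probe sets, several for 691 and none for 1606; only the first were used. Genes of the lists were matched by symbol and by Entrez gene number in a RefSeq table of GRCm38.p6, and a gene without a probe set is not analysed here. Of 48 genes listed to set background, 43 had probe sets, and 3 of their 61 probe sets were above the level in all muscles. Each probe set above background in at least 1 muscle had its variance (2 degrees of freedom) divided by a prior variance. That prior was fitted by limma, robustly and with a trend on level. The F test on this ratio was one-sided. For its prior degrees of freedom, every probe set was given the largest value of the fit, in place of the lower values that robust fitting gives outlying ones. These p-values, called limma p-values here, were adjusted by Benjamini-Hochberg over all probe sets tested, with a threshold of 0.05. The method was tested on simulated data.

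The 8 genes and all lists were chosen with earlier results of these data known. Named are every probe set of the 8 genes, all measured genes of the lists of ligands, ligand release and co-receptors, and the first 4 measured of each other list; further names were chosen after their values were seen. Alternatives were background at the 90th or 99th percentile, a second quantile normalization, median centring, no _x_at and _s_at probe sets, averaged probe sets, 1 probe set per gene, no background filter, other limma settings, a 1.5-fold range and leaving out each muscle. Python 3.11.15, numpy 2.4.6, pandas 2.3.3, matplotlib 3.10.9, R 4.3.3 and limma 3.58.1 were used.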

Additional observations from a re-analysis of the deposited data

How the results depend on the processing

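The 6 probe sets of the receptors and Gli factors above background became 4 at the 99th percentile and 5 without _x_at and _s_at probe sets, and were 6 without any 1 muscle. The count of genes above background, 5, became 3 at the 99th percentile, where Ptch1, Smo and Gas1 stayed, and 3 with probe sets averaged. For the 92 other pathway genes, the 41 above background became 34 at the 99th percentile, 51 at the 90th and 37 with probe sets averaged. At the 99th and 90th percentiles, the 6 cilium genes became 3 and 9, and the 10 reported targets became 9 and 15. The share over all genes was not computed at these settings. The margin of Gli2 1459211_at turned to -0.33 at the 99th percentile and that of Ptch1 1450824_at to 0.025 at the 90th, a setting that by its construction moves every margin the same way within a muscle. Among the probe sets of these genes that passed the background filter, 0 had excess variance by limma or a range of 1 under every alternative run, 0 reached the 1.5-fold limit (below background, Ptch1 1450824_at spanned 1.61-fold and Gli1 1.51-fold), and 0 had an unadjusted p under 0.05, except 1 without muscle 3 (0.0456, adjusted p 0.987); without the filter all 15 were tested, with 0 called and a smallest unadjusted p of 0.0831. Over all probe sets the 16 with excess variance became 26 after quantile normalization, 8 at the 99th percentile, 6 with 1 probe set per gene, and 0 by limma with no trend on level (388 at an unadjusted p under 0.05) or a fit that was not robust (468); without 1 muscle they ran from 0 to 1, with 0 without muscle 1 (522). The 71 with a range of 1 became 142 without a background filter and 43 at the 99th percentile, which change the number tested, 24 with 1 probe set per gene and 432 at the 1.5-fold limit, and without 1 muscle ran from 3 to 55, with 3 without muscle 3. A second list of background genes was not run. No paired analysis was possible because there is 1 group. The values carry no detection calls or probe signals, so margins over background are the only measure of how dim a reading was.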
